A study of Mus musculus with 4 samples.

Results

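The keratin genes described here are all genes that the array design names Krt followed by a number alone. They came to 48 genes (26 of type I and 22 of type II) of 37074 named genes, measured by 64 of the array's 56605 probes. Names such as Krt6a, Krt6b and Krt33a carry a letter and fall outside this rule; they are given separately. The series compares GC-1(spg) with GC-2(spd)ts, lines of mouse testicular germ cells, on 4 one-colour Agilent arrays, 2 per line. Both lines carry the SV40 large T antigen: GC-1 is known to descend from type B spermatogonia, and GC-2 from spermatocytes that also received a p53 whose activity depends on temperature. Per the labels, both were grown at 37 °C and 5% CO2 in high-glucose DMEM with 10% serum and harvested at 90% confluency, and the labels name no other treatment. The labels call the cell type a germ cell line. Of 7 germ cell markers, Ddx4 and Zbtb16 were detected in GC-1 (well above background on both arrays of the line) and Zbtb16 in GC-2. Of all genes, 63.0% were detected in GC-1 and 56.6% in GC-2. Stra8 and Sycp1 were above background on 1 GC-1 array, Ddx4 and Sycp3 on 1 GC-2 array, and Dazl and Kit on no array.

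Keratins build the intermediate filaments of epithelial cells. Each filament is made of obligate pairs of an acidic type I keratin and a basic or neutral type II keratin, and partners without each other are known to be degraded. Simple epithelia and mesothelium typically make Krt8 with Krt18 and Krt19, basal cells of stratified epithelia Krt5 with Krt14, suprabasal epidermis Krt1 with Krt10, and hair follicles a large set of their own. Spermatogenic cells rely mainly on other cytoskeletal proteins, while Krt8 and Krt18 are known from fetal and immature Sertoli cells, the supporting cells of the testis.

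A value is the processed signal of a probe, the spot's Cy3 brightness after background subtraction, and differences are log2 values of GC-2 minus GC-1 after the 75th percentile of each array was subtracted. That percentile was 666 and 693 on the GC-1 arrays but 416 and 199.9 on the GC-2 arrays, so raw signals are lower in GC-2 for a gene of equal normalized level. A gene was called lower or higher at a limma adjusted p under 0.05. The family was chosen by its differences in this same contrast, since several of its members were already known to stand among the largest falls, so its calls describe these 4 arrays and are no independent support. With 2 arrays per line the precision is limited, and the labels do not say whether the replicates were separate cultures, so that the error in the test is that between these arrays and may be purely technical. Each line occupied its own row of 1 slide, which means that line and slide position cannot be told apart.

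The probes that carry the largest differences are shown by the first 30 of their 60 bases, 5′ to 3′ as deposited, because the results turn on what these probes detect.
Krt18: ggatggcagagtggtgtccgagactaatga
Krt8, probe that represents the gene: ccatccaaacccaattcagttgtattttct
Krt8, other probe: ccgaggatcagccctaatcctctggccaac
Krt19: acggaggcccgttatggagtccagctgtca
Krt14: tgtccctataggcttcactctttacttgac
Krt42: ctggaaatgcagatcgagagcctgaaggag
On the array's mm9 positions the Krt18 probe lies at chromosome 15, 101862341 to 101862400. The Krt8 probes lie on the same chromosome at 101827138 to 101827197 and 101827214 to 101827273. On chromosome 11 the Krt19 probe lies at 100002392 to 100002451, the Krt14 probe at 100064495 to 100064554 and the Krt42 probe at 100128252 to 100128311. Whether each lies in a coding exon or an untranslated region was not examined here. Runs of at least 14 bases shared with a probe of another gene were found in 42 of the 64 keratin probes, but not in the probes of Krt18 or Krt19.

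Of the 48 keratin genes, 29 were detected in GC-1, as were 63.0% of all genes on the array, and 19 in GC-2, as were 56.6% of all genes. All 19 were also detected in GC-1. A further 9 (Krt7, Krt8, Krt15, Krt20, Krt23, Krt24, Krt28, Krt36 and Krt76) were detected in GC-1 with no GC-2 spot above background, a state held by 4.52% of all genes. None showed the reverse, which 1.35% of all genes did. Krt75 was detected in GC-1 and was above background on 1 GC-2 array, Krt78 on 1 GC-1 array alone, and Krt81 on 1 array of each line. The remaining 17 genes, with 21 probes at signals from 1.54 to 11.6, were above background on no array: Krt4, Krt12, Krt25, Krt26, Krt27, Krt32, Krt34, Krt35, Krt39, Krt40, Krt71, Krt72, Krt73, Krt74, Krt77, Krt82 and Krt83. The detection limit differed: among probes that passed the flag, the lowest normalized log2 value was −6.19 and −5.92 for GC-1 but −5.58 and −4.69 for GC-2. The part of that difference in the 9 genes was not tested.

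The 29 genes measured in GC-1 were also those that could be tested. Among them 13 were lower (23.3% of all 24129 genes tested were) and 2 higher in GC-2 (20.0% of all genes were), so that 15 had a call, against 43.4% of all genes. The other 14 keratins had no call, with differences from −1.11 to 1.12. The median difference was −0.78 for the tested keratins and −0.04 for all genes. At least 32-fold lower were Krt18, Krt14, Krt19, Krt42 and Krt8, a size reached by 1.53% of all genes tested. These shares only give the scale, since the contrast itself led to the choice of the family. Type I keratins had 10 lower and 2 higher among 17 tested (median −2.18), and type II keratins 3 lower and 0 higher among 12 (median −0.21). These medians take values below background as measured. With each of the 9 genes detected in GC-1 alone at its bound, or at 0 where there is none, the medians were −0.38 for the tested keratins, −0.69 for type I and −0.04 for type II, and 0.00 for all genes treated the same way. Whether the types differ was not tested.

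The counts depended on how dim spots were treated. Of the 13 lower keratins, 5 were measured in both lines (Krt9, Krt14, Krt18, Krt19 and Krt42) and 8 in GC-1 alone, where the GC-2 value is only a bound. With normexp, another background correction, the count was 5, made up of Krt8, Krt14, Krt18, Krt19 and Krt42, and the median over the tested keratins was 0.50 beside 0.38 for all genes. Krt15 and Krt23 then stood at −0.45 and −0.40 without a call, and Krt7, Krt9, Krt20, Krt24, Krt28 and Krt76 at 0.12 to 0.75. Normexp was run with an offset of 50 added to every signal, which is above the processed GC-2 signals of these genes. Their positive values there are therefore no measured rise. Scaled to the E1A spike-in probes, 27 keratins were lower and 0 higher, as 85.5% of all genes were lower and 3.75% higher.

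**Figure D1:**
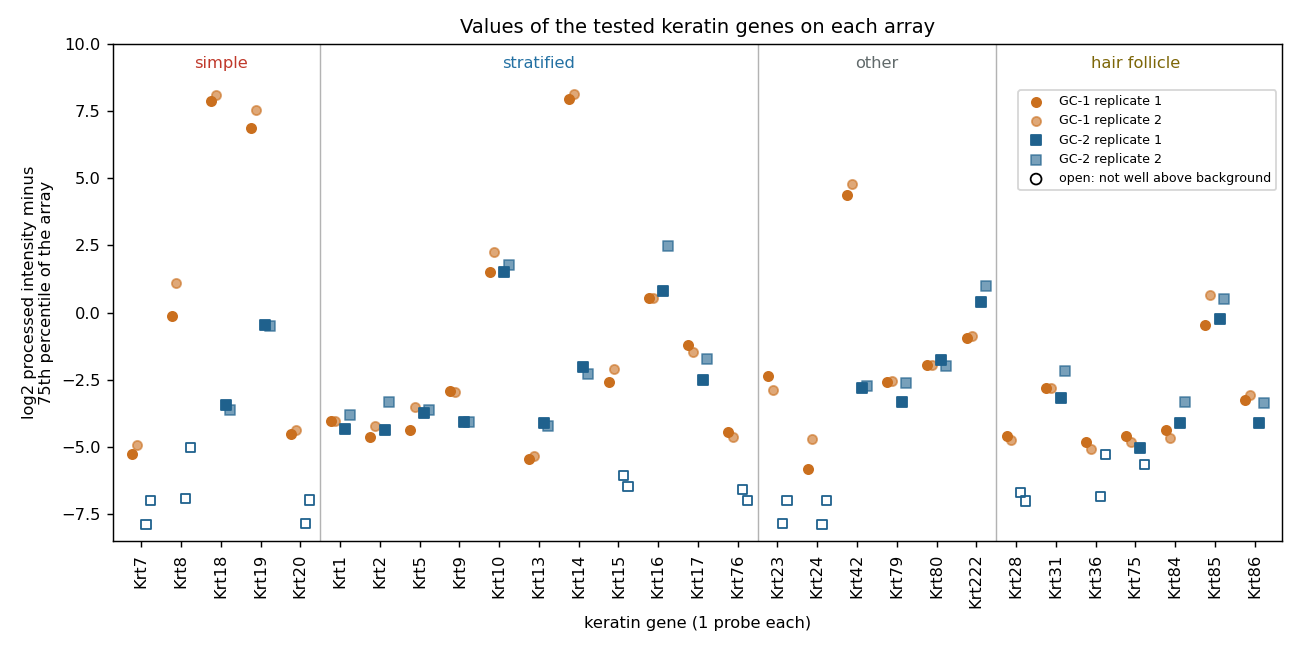
Normalized log2 processed intensity (vertical axis, minus the array's 75th percentile) of the probe representing each of the 29 tested keratin genes, with 1 point per array, circles for GC-1, squares for GC-2 and open symbols where the spot was not well above background. The GC-1 points of Krt18, Krt19, Krt14 and Krt42 stand far above their GC-2 points, whereas those of Krt10, Krt5 and Krt85 overlap them.

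The simple epithelial keratins were all lower in GC-2, 5 of 5, but Krt7, Krt8 and Krt20 passed the filter through GC-1 alone. Their median was −6.46 as measured and −5.63 with those 3 at their bounds. With normexp Krt7 and Krt20, whose signals lie below its offset of 50, stood at 0.71 and 0.53. Krt18, the type I keratin of simple epithelia, had signals of 154883 and 188691 on the GC-1 arrays and of 38.1 and 16.3 on the GC-2 arrays. Both GC-2 values were still well above background, and the lines stood far apart. The log2 difference of Krt18 was −11.51 ± 0.24 (its SE, from 2 arrays a line, as for all differences below). Krt19, a type I keratin of ducts and mesothelium that lacks most of the usual tail, gave 77556 and 129267 in GC-1 against 304.7 and 141.5 in GC-2. It fell by 7.68 ± 0.30 and remained well above background in GC-2.

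Krt8, the type II partner of Krt18, had signals of 617 and 1474 in GC-1 and of 3.42 and 6.17 in GC-2, where neither spot was well above background. Set against the lowest signal well above background on each GC-2 array, or the probe's own where higher, Krt8 was at least 49.5-fold brighter in GC-1. Its measured difference was −6.46 ± 0.72. The second Krt8 probe gave 679 and 1789 against 2.30 and 4.53, which is at least 57.2-fold and a measured difference of −7.18. Both probes were brighter on the second GC-1 array than on the first, and the GC-2 values lay far below either.

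Krt20, a type I keratin of intestinal and urothelial cells, gave 28.7 and 33.8 in GC-1 against 1.81 and 1.58 in GC-2. It was dim in GC-1, not above background in GC-2, and at least 1.61-fold brighter in GC-1. Krt7, a type II keratin of glandular and ductal cells, gave 17.4 and 22.8 against 1.74 and 1.56. Its bound was at least 1.03-fold, so that little more than its absence from the detected range in GC-2 is known.

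The promoters of Krt8 and Krt18 are shown as the 300 bases around the RefSeq start on GRCm38.p6, read in the direction of the gene. Most of these bases lie upstream. Both are neighbouring genes of the same filament pair and were lower together. Capitals mark the TATA box letters of Krt8, which lie at the RefSeq start itself. TATAAA begins at −1 from that start, and its reverse complement, the other of 2 overlapping matches, at −3. No binding or methylation was measured here.
Krt8, chr15:102004293-102004592, minus strand: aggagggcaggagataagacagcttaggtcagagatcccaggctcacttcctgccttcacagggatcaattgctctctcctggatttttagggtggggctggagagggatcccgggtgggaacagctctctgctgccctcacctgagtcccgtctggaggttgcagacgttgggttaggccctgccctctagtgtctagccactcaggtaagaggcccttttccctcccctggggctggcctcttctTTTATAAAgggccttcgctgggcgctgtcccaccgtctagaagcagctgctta
Krt18, chr15:102027966-102028265, plus strand: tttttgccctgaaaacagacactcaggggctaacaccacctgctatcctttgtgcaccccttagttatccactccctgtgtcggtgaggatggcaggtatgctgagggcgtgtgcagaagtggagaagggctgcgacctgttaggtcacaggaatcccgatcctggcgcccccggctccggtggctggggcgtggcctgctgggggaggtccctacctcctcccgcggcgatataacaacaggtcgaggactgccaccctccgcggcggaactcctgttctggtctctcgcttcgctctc
The GC content was 58.0% for Krt8 and 61.3% for Krt18. On both strands the TATA box was searched as TATAAA, the GC box as the letters GGGCGG, the CCAAT box by the letters of its name, the AP-1 motif as TGANTCA and the grainyhead motif as AACNGGTT, and the Krt18 window held none of them. Among 35 promoters of 34 keratin genes, the TATA box was present in 18, the CCAAT box in 13, the GC box in 2, the AP-1 motif in 2 and the grainyhead motif in 0. Of 32851 promoters of all genes, 13.6% held the TATA box, 37.4% the CCAAT box, 35.7% the GC box, 7.81% the AP-1 motif and 2.09% the grainyhead motif. Matches were counted on either strand and at any place in the window, so that a TATA box here is not placed relative to the start. A match describes letters and no factor.

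The keratins of stratified epithelia gave a mixed picture, with 4 lower, 1 higher and 6 without a call among 11 tested of 14 (median −0.25). Krt14, the type I keratin of basal cells, had signals of 165789 and 194503 in GC-1 and of 102.2 and 41.3 in GC-2. It fell by 10.20 ± 0.24, and its GC-2 spots remained above background. Krt5, its type II partner in basal cells, gave 32.5 and 61.0 in GC-1 and 31.1 and 16.4 in GC-2. The normalized values of the lines overlapped for Krt5, and its difference of 0.25 ± 0.34 passed no threshold. On neither GC-1 array was Krt5 above the brightest ERCC control probe, at 74.2 and 64.8 (ERCC probes match artificial RNAs whose addition is not stated in the labels).

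Krt15, another basal type I keratin, gave 110.2 and 161.0 in GC-1 against 6.17 and 2.26 in GC-2 and was at least 6.91-fold brighter in GC-1. Krt76, a type II keratin of the palate, gave 30.3 and 28.1 against 4.35 and 1.56 and was at least 1.51-fold brighter. Both were above background on no GC-2 array. Krt9, the type I keratin of palm and sole, gave 88.2 and 89.7 against 24.5 and 11.95 and fell by 1.14 ± 0.22; without GC-1 replicate 1 the difference was −1.12 and no longer passed.

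The suprabasal pair had no call. Krt10 (type I) gave 1918 and 3282 in GC-1 and 1178 and 680 in GC-2, a difference of −0.25 ± 0.32 with overlapping normalized values. Krt1 (type II) is represented by a probe at 40.4 and 42.2 against 20.5 and 14.4 and a difference of −0.03 ± 0.28. That probe lies on the strand opposite to the gene. The Krt1 probe on the gene's own strand stayed at 1.59 to 2.60 on all arrays, below background, so that no Krt1 level was measured. Without such opposite probes, 28 keratins were detected in GC-1 and 18 in GC-2. Krt2, also suprabasal and type II, gave 26.9 and 36.9 against 20.0 and 20.0 (0.58 ± 0.41).

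Krt16 and Krt17, type I keratins induced in wounded and hyperproliferative epidermis, had no call either. Krt16 gave 961 and 999.7 in GC-1 and 731 and 1120 in GC-2. Its difference of 1.12 ± 0.55 did not pass, but it was 1.96 and passed without GC-2 replicate 1, and turned to −0.95 on the E1A scale. The second probe gave 1.13. Krt17 gave 291.6 and 248.9 against 73.2 and 61.0 (−0.78 ± 0.34). Of their usual type II partners outside the naming rule, Krt6a gave 1014 and 2912 against 120.1 and 93.6 and fell by 2.78 ± 0.54, while Krt6b had 0.13 ± 0.32 and no call. Krt33a, a hair keratin also outside the rule, was at least 2.01-fold brighter in GC-1.

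Krt13, a type I keratin of internal stratified epithelia, gave 15.3 and 17.1 in GC-1 and 23.8 and 10.8 in GC-2. Raw signals overlapped, normalized values did not, and Krt13 rose by 1.22 ± 0.23 in GC-2 relative to the 75th percentile, but was −0.85 with the arrays scaled to the E1A probes. These 8 probes, which match Agilent's spike-in RNA, stood 2.07 log2 higher in GC-2 (SD 0.46). Its second probe (1.13) did not pass. Krt4, its type II partner, was above background on no array.

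Among the 7 other keratins, 3 were lower and 1 higher of 6 tested (median −1.28, or −0.19 with those in GC-1 alone at their bounds). Krt42, a type I keratin that is a pseudogene in humans, gave 13747 and 19265 in GC-1 and 59.96 and 30.3 in GC-2. It fell by 7.34 ± 0.26 and was above background on all 4 arrays. A second Krt42 probe stayed at 1.57 to 2.40 and below background in both lines, so the difference rests on 1 of its probes. Krt23, a type I keratin, gave 128.7 and 94.4 against 1.81 and 1.57 and was at least 5.72-fold brighter in GC-1. Krt24, also type I, gave 11.8 and 26.2 against 1.75 and 1.56, for which no bound above 1 could be given; its call was lost without GC-1 replicate 2 (−1.63) or GC-2 replicate 1 (−1.73).

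Krt222, a short keratin-related type I gene, gave 345 and 376 in GC-1 and 549 and 399.6 in GC-2. It was brighter on both GC-2 arrays and rose by 1.62 ± 0.29, but was −0.45 on the E1A scale and was not called without GC-1 replicate 1 (1.58) or in the authors' deposited table (2.37). Its second, dimmer probe gave 0.21, and 23 bases of the probe that rose are shared with a probe of Snap23. With GC-2 replicate 1 left out, 4 keratins were higher in place of 2, and without GC-1 replicate 1 the count was 1. Krt79 gave 110.6 and 117.2 against 41.9 and 32.8 (−0.38 ± 0.31), without a call.

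Krt80 probes disagreed. The probe that represents the gene gave 172.2 and 179.3 in GC-1 and 121.0 and 50.1 in GC-2, a difference of 0.06 ± 0.23. Another gave 521 and 825 against 17.5 and 12.3 and fell by 4.25 ± 0.33. Averaged over its tested probes Krt80 was at −1.22. The first 30 bases of both are shown because the call for Krt80 depends on which is read.
Krt80, without a call: agatcctcttcccacgtagctctgacaagg
Krt80, lower in GC-2: tcctcagtgggacatgaaatatagaacata
The second holds 28.3% GC over its 60 bases, the lowest among the keratin probes, and the first 55.0%. In all, 15 keratin genes had several probes and 6 had at least 2 tested. The probes of Krt13, Krt80 and Krt222 differed in call.

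Hair follicle keratins were mostly unmeasured, with 7 of 22 tested, 1 lower and 0 higher (median −0.60, or −0.19 with bounds). Krt28, an inner root sheath type I keratin, gave 27.5 and 25.8 in GC-1 against 4.04 and 1.55 in GC-2 and was at least 1.38-fold brighter in GC-1. Krt36, a type I hair keratin, gave 23.5 and 20.6 against 3.61 and 5.18. Its bound was at least 1.14-fold, and its difference of −1.11 ± 0.53 had no call, but it was −1.90 and past the threshold without GC-2 replicate 2. Krt75, the companion layer type II keratin, gave 27.4 and 24.3 against 12.5 and 3.96 (−0.64 ± 0.30).

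The type II hair keratins Krt84, Krt85 and Krt86 were measured in both lines without a call. Krt85 gave 485 and 1080 in GC-1 and 352 and 286.7 in GC-2 (0.05 ± 0.46), with overlapping normalized values. Krt86 gave 70.5 and 83.3 against 24.1 and 19.2 (−0.60 ± 0.32). Krt84 gave 32.2 and 27.4 against 24.03 and 19.7 (0.78 ± 0.33), and was 1.17 and past the threshold without GC-2 replicate 1. Krt31, a type I hair keratin, gave 94.5 and 99.7 against 45.9 and 44.2 (0.13 ± 0.38). Hair keratins are near-identical in part, and the probes of Krt81 and Krt83 share 24 bases and those of Krt85 and Krt81 share 16, so their signals may be mixed.

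**Figure D2:**
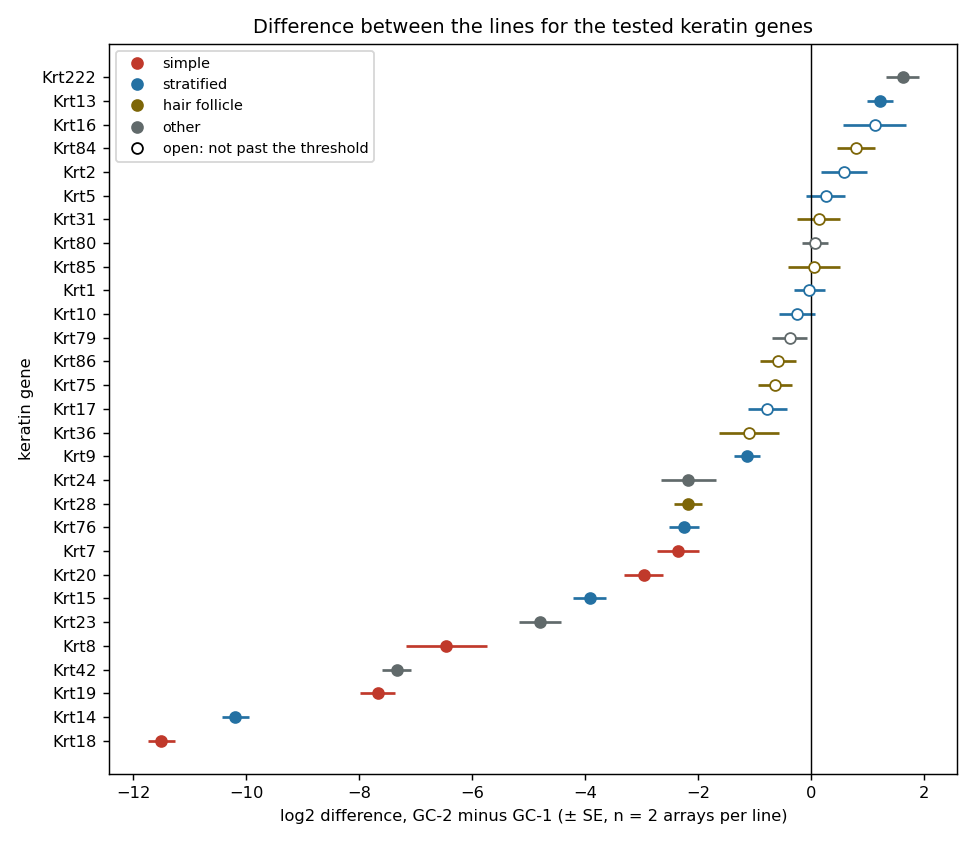
Log2 difference of GC-2 minus GC-1 (horizontal axis) with its SE (n = 2 arrays per line) for the 29 tested keratin genes, coloured by group and open where limma's threshold was not passed. The 5 simple keratins all lie to the left of 0, from −11.51 for Krt18 to −2.36 for Krt7, while among the 7 hair follicle keratins only Krt28 has a filled point.

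Partners did not always move together. Of 24 listed pairs of a type II and a type I keratin, 13 had both partners tested, which also were the 13 measured on both GC-1 arrays, and 6 had both measured on both GC-2 arrays. In 3 pairs both partners were lower (Krt8 with Krt18, Krt7 with Krt19 and Krt8 with Krt20). Krt7, Krt8 and Krt20 were detected in GC-1 alone, with bounds of at least 1.03-fold, 49.5-fold and 1.61-fold. With normexp (offset 50) Krt8 stayed lower (−2.91), while Krt7 and Krt20, with signals below that offset, stood at 0.71 and 0.53. In 5 pairs 1 partner was lower and the other had no call: Krt5 with Krt14, Krt5 with Krt15, Krt1 with Krt9, Krt76 with Krt10 and Krt80 with Krt18. Of the lower partners here, Krt15 and Krt76 were detected in GC-1 alone. With normexp Krt15 lost its call (−0.45), and Krt9 and Krt76 stood at 0.12 and 0.56, each with GC-2 signals below that offset. In 5 pairs neither was called. Because Krt1 is represented by an opposite-strand probe, its pairs say nothing of Krt1 itself: without them 11 pairs were tested, with both lower in 3, 1 lower in 4 and neither called in 4, and 4 had both partners measured in GC-2. The pair of Krt80 with Krt18 rests on the choice of Krt80 probe, since another fell by 4.25. Pairs share members, so these counts are not independent. The differences of the partners were not tested against each other.

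**Figure D3:**
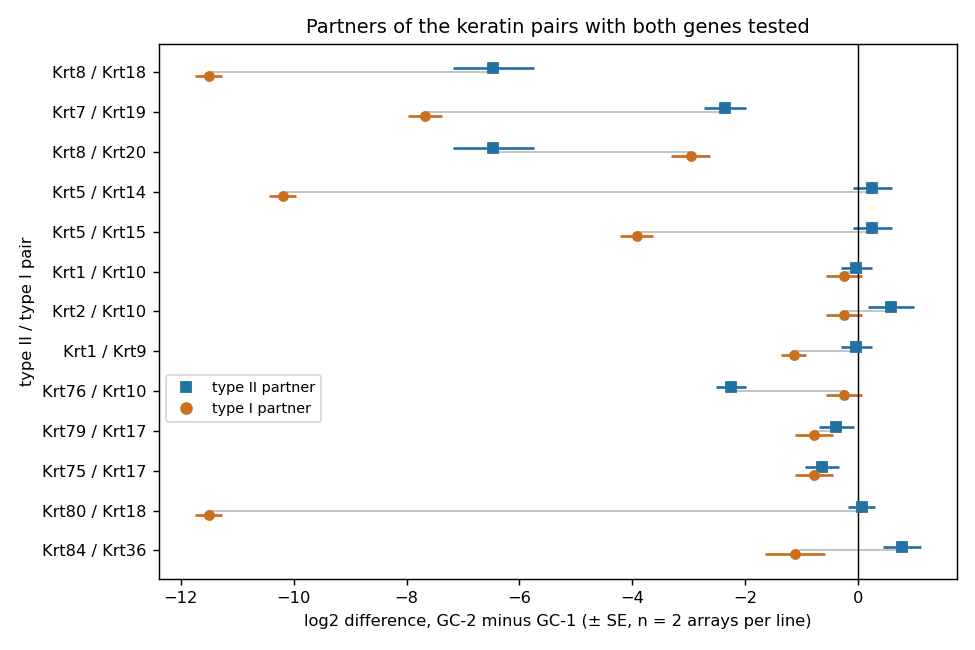
Log2 difference of GC-2 minus GC-1 (± SE, n = 2 arrays per line) for both partners of the 13 keratin pairs with both genes tested, squares for the type II and circles for the type I partner, joined by a line. Krt8 and Krt18 both lie far to the left of 0, whereas Krt5 lies at 0.25 and its partner Krt14 at −10.20.

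The keratin genes lie in a pair of clusters. On chromosome 11 the array holds 35 probes of 25 genes, all type I, over 1032.8 kb (mm9, 99095480 to 100128311). On chromosome 15 it holds 28 probes of 22 genes over 683.5 kb (101178889 to 101862400), of which Krt18 is the only type I gene, and Krt85 has no position in the files. Genes with and without a call were interspersed along chromosome 11. Krt16 and Krt17, at 1011.9 and 1022.1 kb from the first probe, had no call and lie between Krt14 at 969.0 kb and Krt42 at 1032.8 kb, which were both lower. On chromosome 15, Krt8 and Krt18 lie next to each other at the far end of the cluster.

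**Figure D4:**
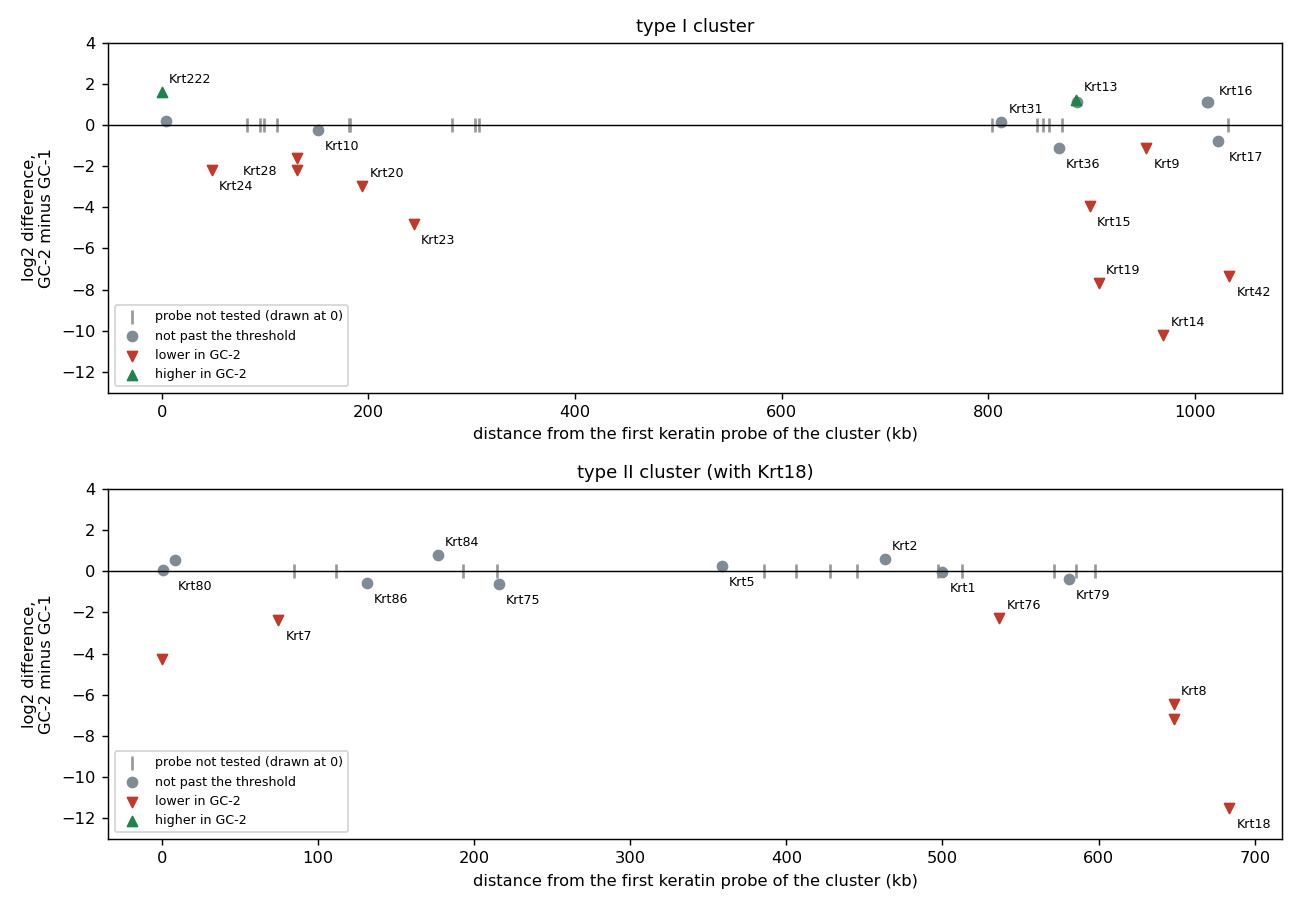
Log2 difference of GC-2 minus GC-1 (vertical axis) of each tested keratin probe against its distance in kb from the first keratin probe of its cluster, with triangles for calls, circles for probes without one and ticks at 0 for untested probes. Krt14 and Krt42, at −10.20 and −7.34, flank Krt16 and Krt17, at 1.12 and −0.78 without a call.

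On each GC-1 array the 64 keratin probes summed to signals of 419500 and 543770, which is 0.194% and 0.257% of the signal of all probes. On the GC-2 arrays the sums were 4345 and 3677, or 0.00325% and 0.00509%. Above the brightest ERCC probe on both arrays were 16 keratins in GC-1 (44.6% of all genes were) and 10 in GC-2 (43.0%). The 10 were Krt10, Krt14, Krt16, Krt17, Krt19, Krt31, Krt79, Krt80, Krt85 and Krt222. Krt18 was not among them, with 38.1 and 16.3 against 38.3 and 32.3 for the brightest ERCC probe on the same GC-2 arrays. In these bulk samples, fewer cells making a keratin and less RNA per cell cannot be told apart.

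Of the other intermediate filament genes, 12 of 15 were tested, and 4 were lower and 1 higher (median −0.37). This list and those that follow were written with earlier results of these data known. Over all genes tested, 23.3% were lower and 20.0% higher, which gives the scale for the counts in each list. Prph, a neuronal filament protein, fell by 5.93 ± 0.23, Bfsp1, a lens filament protein, was at least 17.5-fold brighter in GC-1, and the progenitor filament gene Nes fell by 1.39 ± 0.29. Gfap, the astrocyte filament gene, was at least 1.64-fold brighter in GC-1. Vim, the filament of mesenchymal cells, gave 59742 and 79473 in GC-1 and 30657 and 18100 in GC-2 and had −0.31 ± 0.26. Lmna, the nuclear lamin, had 0.09 ± 0.25 through its representing probe, and neither was called. Another Lmna probe rose by 1.89 ± 0.28, at 1066 and 1580 in GC-1 against 2806 and 1493 in GC-2. A further one had 0.16 and no call. Ina, the neuronal internexin, rose by 0.85 ± 0.26 on the 75th percentile scale but lost its call under several alternatives and on the E1A scale no list member was higher. Without GC-1 replicate 2, 2 members were lower in place of 4.

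Genes that anchor keratins at desmosomes and hemidesmosomes had 9 lower and 1 higher of 15 tested of 18 (median −1.05). The shares over all genes tested were 23.3% lower and 20.0% higher. Evpl and Ppl, the cornified envelope plakins that bind keratins, fell by 9.22 ± 0.35 and 8.45 ± 1.08, with Ppl above background on 1 GC-2 array only. Dsp, the desmoplakin that ties keratins to desmosomes, gave 652 and 897 in GC-1 against 2.87 and 5.31 in GC-2 and was at least 39.7-fold brighter in GC-1. Pkp1, a desmosomal plaque protein, fell by 5.56 ± 0.36. Dst probes disagreed: 3 were higher, the representing one by 0.80 ± 0.25 (its call was lost on the E1A scale and under other alternatives) and the others by 1.94 and 2.40, and 1 fell by 1.27. Itga6 had no call through its representing probe (0.28 ± 0.25), but its 4 other tested probes all fell, among them those at −4.50 and −6.35. Without GC-1 replicate 1, 5 anchors were lower in place of 9.

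Regulators of epithelial transcription and splicing had 6 lower and 1 higher of 12 tested of 16 (median −0.82), beside 23.3% lower and 20.0% higher of all genes. Grhl2 and Grhl3, grainyhead factors of epithelial genes, were at least 7.40-fold and at least 5.02-fold brighter in GC-1. Esrp2, an epithelial splicing regulator, fell by 3.79 ± 0.43. Tfap2a, an activator of epidermal keratins, rose by 3.68 ± 0.46 and was above background on 1 of 2 GC-1 arrays, and it was not called in the authors' deposited table. With normexp background correction 3 regulators were lower.

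**Figure D5:**
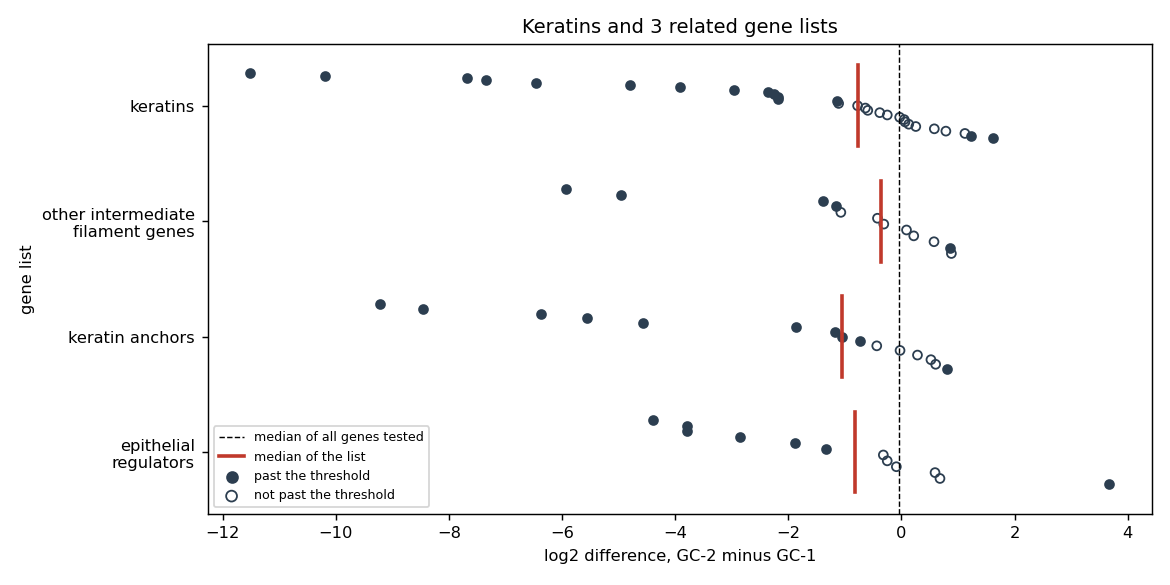
Log2 difference of GC-2 minus GC-1 (horizontal axis) of the tested members of the keratins and 3 related lists, with filled points past limma's threshold, red bars at each list's median and a dashed line at the median of all genes tested (−0.04). The medians are −0.78 for the keratins, −0.37 for other intermediate filament genes, −1.05 for the anchors and −0.82 for the regulators.

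Markers of other cell types also had calls in the same contrast, in which 23.3% of all genes tested were lower and 20.0% higher. Of the mesothelial markers, 3 of 4 tested (5 of 6 have a probe) were lower in GC-2: Upk3b was at least 960.0-fold brighter in GC-1, Msln fell by 7.32 ± 0.23 and Wt1 by 6.29 ± 0.26. Their summed signal was 267610 to 293290 in GC-1 and 690.8 to 1313 in GC-2, and Lrrn4 was above background on no array. Of the 8 epithelial markers, 5 were tested and 4 lower, 3 of them the keratins Krt8, Krt18 and Krt19, with Ocln at least 2.44-fold brighter in GC-1. Their summed signal was 233890 to 321370 in GC-1 and 218 to 415 in GC-2, nearly all of it from those keratins. Cdh1, the E-cadherin that defines epithelium, was above background on no GC-1 array (2.14 and 3.28) and on 1 GC-2 array. Epcam was above background on 1 GC-1 array, at 20.0, and Cldn4 on none, while Cldn7 had 0.69 ± 0.33 and no call.

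Of the Sertoli cell markers, which include Wt1, 2 were lower (Wt1 and Fshr) and 2 higher (Gata4 and Rhox5; 0 on the E1A scale) of 5 tested, with summed signals of 81309 to 98042 in GC-1 and 1526 to 2994 in GC-2. Nearly all of the GC-1 sum was Wt1, and without it the sums were 999.5 to 1107 in GC-1 and 1168 to 2392 in GC-2. Amh and Cldn11 were above background on no array. Fshr gave 14.6 and 15.2 in GC-1 against 4.04 and 1.66 in GC-2. It was above background on no GC-2 array, and no bound above 1 could be given. With normexp 1 Sertoli marker was lower in place of 2. Of the mesenchymal markers 2 were lower (Col1a1 and Dcn) and 1 higher (Pdgfrb) of 5 tested, with sums of 323730 to 411910 and 51407 to 125280. Probes disagreed for the collagens. Beside the representing probe, Col1a1 probes stood at −1.39 (lower), −0.08 and 0.50 (no call). For Col1a2, whose representing probe had no call, others stood at 1.68 and 3.30 (higher) and 0.52 (no call). Of the germ cell markers 0 of 2 tested were called, with sums of 82.4 to 103.4 and 31.8 to 65.6. The part of these cell types in the keratin differences was not tested.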

How the data were processed

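Scans were read out by Agilent Feature Extraction 11.5.1.1, per the file headers, and the deposited intensity of a spot is its Cy3 brightness after background subtraction, with no normalization between arrays. The deposited files also hold raw mean and background intensity and flags of 0 or 1. The authors' deposited series table holds log2 values. For 25183 genes with a single probe, 33 of them keratins, at least 99.79% of these equal the log2 processed intensity minus 1 constant per array within 0.01, with column medians from −3.78 to −3.53. Genes were not centred, values are per array and not ratios, and how the table treats genes with several probes is unstated in the labels and headers.

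From the scanner files, log2 processed intensities were averaged over the spots of a probe and the array's 75th percentile was subtracted. Control spots and irregular spots (92 to 224 per array) were left out, and no spot was saturated. Tested were probes flagged well above background on both arrays of either line, with a value on all 4 arrays (36692 probes, 24129 genes by array name). GC-2 was compared with GC-1 by a two-sided test with limma 3.58.1 (lmFit, then eBayes; R 4.3.3) calling an adjusted p under 0.05 (Benjamini-Hochberg over all tested probes). The brightest tested probe on average stood for its gene. Simulated data with known changes served to check the limma step. Bounds set the GC-1 mean of the normalized log2 values against the mean, over GC-2 arrays, of the lowest value that passed the flag there, or of the probe's own value where that was higher. Some spots above that lowest value did not pass the flag. On GC-2 replicate 1, for example, an Ehf probe at 8.74 did not, while the lowest passing signal was 8.67. Each "at least" fold therefore holds for this limit and is no strict lower bound.

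Lines and replicate numbers came from the sample titles. Every keratin measured in a line was named, together with its listed partners, and in the other lists up to 4 members past the threshold with the largest differences, with Vim, Lmna, Cdh1 and Epcam. Other names, such as Ina, Dst, Itga6 and the remaining markers, were added after their values were seen. The members, lists and tests were chosen with earlier results of these data known. RefSeq names by accession were found for 54 of the 64 probes, 53 with the same symbol. Alternatives covered centring, quantile normalization, E1A scaling, normexp (offset 50), detection filters, a replicate block, each array left out, the mean over probes and the authors' table. Array depth gives no counting error, and 57.5% to 64.9% of probes were well above background. Pearson's r over the 30316 probes well above background on all 4 arrays was 0.989 for the GC-1 pair of arrays, 0.990 for the GC-2 pair and 0.896 to 0.910 across lines. For tested keratins the median replicate SD (log2) was 0.16 for GC-1 but 0.43 for GC-2. Over those 30316 probes it was 0.20 and 0.17, but the sets are unlike, since 9 tested keratins had no GC-2 spot above background.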

Additional observations from a re-analysis of the deposited data

Results flagged for a closer look

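A pair of probes that the array design does not name as keratins carried signal, and their accessions belong to keratins in RefSeq. The probe named 5430421N21Rik (Krt83 in RefSeq) gave 107.8 and 100.0 in GC-1 against 64.1 and 43.1 in GC-2, with a difference of 0.25 ± 0.27 log2 and no call. The probe named 1700011A15Rik (Krt88 in RefSeq) gave 46.2 and 50.3 against 14.6 and 10.1, with −0.76 ± 0.27 and no call. Both were well above background on all 4 arrays and above the brightest of the 308 negative control spots of the same array, at 5.13 to 15.01. The probe that the array names Krt83 matched Krt87 in RefSeq and was above background on no array.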

How the results depend on the processing

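The count of keratins lower in GC-2 was 13, and it was 27 scaled to the E1A spike-in probes, 5 with normexp, 5 when only probes well above background on all 4 arrays were tested, and 12 to 14 with each array left out. The count of higher keratins was 2, and it was 0 on the E1A scale, 1 in the authors' deposited table and 1 to 4 with each array left out. Replicate numbers share only a number (deviations of same-numbered arrays correlated at 0.15 over probes), and with replicate number as a block the counts were 13 and 2. Keratins measured in GC-1 numbered 16 in place of 29, and in GC-2 10 in place of 19, when the brightest ERCC probe was the limit, and by the positive and significant flag they numbered 41 in GC-1 and 29 in GC-2. With each array left out, the measured counts were 30 in GC-1 and 19 to 21 in GC-2.

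On the E1A scale 9 keratins changed sign: Krt16 (−0.95, without a call) and, with a call in either, Krt85 (−2.02), Krt222 (−0.45), Krt80 (−2.01), Krt31 (−1.94), Krt5 (−1.81), Krt84 (−1.28), Krt2 (−1.49) and Krt13 (−0.85). With normexp 11 did: the called Krt9 (0.12), Krt76 (0.56), Krt28 (0.62), Krt20 (0.53), Krt7 (0.71) and Krt24 (0.75), and without a call in either Krt36 (0.78), Krt75 (0.78), Krt79 (0.22), Krt86 (0.36) and Krt1 (0.71). Its offset of 50 is above the processed GC-2 signals of all 11, so these positive signs are no measured rise. With the mean over probes Krt80 was at −1.22 and called lower. No other alternative turned the sign of more than 4 keratins, none of them with a call. Median centring added calls for Krt17 (−1.09), Krt86 (−0.91) and Krt36 (−1.43). Krt18, Krt14, Krt19 and Krt42 stayed called under 15 alternatives and Krt8 under the 14 that could test it, with ranges of −13.57 to −9.84, −12.26 to −9.39, −9.75 to −7.34, −9.41 to −6.22 and −8.53 to −2.91. The median of all genes was −0.04, and −0.35 with median centring (30.7% lower, 14.5% higher), 0.16 with the 75th percentile of detected probes, −2.10 on the E1A scale and 0.38 with normexp. The cause was not tested. Signal over background limits the dim keratins, whose GC-2 values are bounds.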
